A study of Mus musculus with 138 samples.

Results

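The libraries described here are mouse 2-cell embryos in which SMARCA5 was targeted for degradation at the zygote stage, set against embryos of the same replicate that were not injected. They were chosen by their labels, as the anti-SMARCA5 TrimAway libraries of replicate 3 and the uninjected control libraries of replicate 3 with at least 100000 counts. This kept 7 of 8 anti-SMARCA5 libraries and 5 of 5 uninjected libraries, which makes 12 of the 138 samples of the series and of the 76 of its TrimAway experiment. The remaining anti-SMARCA5 library, in well F05, held 99 counts.

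The anti-SMARCA5 embryos are wild-type embryos injected as zygotes and collected at least 24 hours after injection. The uninjected embryos are described only as controls without injection, and no age is given for them. IgG libraries of replicate 3 (10 kept), which carry the name of an antibody class without a target, are used beside the main comparison, as are 17 anti-SMARCA5 and 10 uninjected libraries of replicate 1. A replicate is a pool of injected embryos and is called technical in the series description, so the 7 anti-SMARCA5 libraries are embryos of 1 pool. The 5 uninjected libraries share its replicate number, and whether they share its origin and handling is not stated. The p-values measure only the spread between the 12 libraries. The uninjected embryos lacked both the injection and the antibody, and the 2 cannot be told apart in the main comparison.

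SMARCA5, also called SNF2H, is the ATPase of most ISWI chromatin remodelling complexes in mammals, which slide and space nucleosomes. In TrimAway an antibody against an endogenous protein is brought into a cell together with TRIM21, a ubiquitin ligase that binds the constant part of antibodies and sends the bound complex to the proteasome. The mouse embryo starts bulk transcription of its own genome at the 2-cell stage. Transcripts stored in the oocyte are degraded over the same period, while genes of the 2-cell stage, of ribosome production and of RNA processing are switched on.

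Total counts ranged from 951489 to 4009610 in anti-SMARCA5 libraries (mean 1781852 ± 1040910 SD, n = 7) and from 746111 to 967761 in uninjected libraries (mean 831421 ± 85987 SD, n = 5), so the injected libraries were the more deeply sequenced. The difference had an exact two-sided permutation p of 0.0253 (adjusted p = 0.0492 over 3 library measures; the smallest p the 792 splits allow is 0.00126). After thinning to 100000 counts, 8206 ± 1180 genes were detected in anti-SMARCA5 libraries (n = 7) and 9695 ± 624 in uninjected libraries (n = 5), an exact permutation p of 0.0328 (adjusted p = 0.0492). Leaving out well H04, D04, E04, A05, G05 or C05 gave a p between 0.0515 and 0.0758. The share of mitochondrially encoded counts was 22.6% ± 8.07 and 19% ± 8.54 (exact permutation p = 0.477). Anti-SMARCA5 libraries sat in plate column 05 and uninjected libraries in column 04, so position and group cannot be told apart.

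Some libraries stood apart from their group. Uninjected well F04 had the highest mean level of nucleolar, splicing, translation initiation and polymerase II genes of its group and the lowest of maternal transcripts, and for most gene lists the count without it is given beside the count with it. Of the named genes 27 missed the threshold without it. Those not given with their gene list below were Gm5083 (4.15, adjusted p = 0.0541), Rbbp4 (-1.36, adjusted p = 0.0976), Baz1a (-0.86, adjusted p = 0.161), Baz2b (1.01, adjusted p = 0.0806), Psmd13, Psma6, Tcp1, Gtf2f1, Smarcal1, Mdm4, Chek1, Cyp26a1, Hoxa9 and mt-Co1 (adjusted p = 0.0659 to 0.109). Anti-SMARCA5 wells B05 and D05 were nearest to the uninjected libraries on the first principal component of the 22 libraries of replicate 3 (44.8% of the variance of 8640 genes), at 31.7 and -5.15 against 69.9 to 164 for the other 5 and -111 to -36.6 for the uninjected. IgG wells A04, B04 and F03 lay within the anti-SMARCA5 range, at 93.9, 39.5 and 6.2, and the remaining IgG libraries between -88.2 and -42.4. Trim21 was 517 CPM in IgG well A04 and 0 in B04. Their means of log2(CPM + 1) were 3.51 and 4.19 for ribosomal protein genes and 6.76 and 6.31 for maternal transcripts, within the anti-SMARCA5 ranges. Uninjected well H04 held 1180 CPM of Lyz2, a lysozyme of myeloid blood cells, and 86.7 CPM of Tyrobp, with the 6 measured blood markers at 4.84 to 40.1 CPM in sum in the other uninjected and 0 to 59.6 CPM in the anti-SMARCA5 libraries. The 16 cumulus and granulosa markers summed to 10.9 to 219 CPM in anti-SMARCA5 and 0.807 to 28.9 CPM in uninjected libraries, with Fshr and Col3a1 at 0 in all 12 and the highest sum in well B05. B05 held 81.4 CPM of Tnfaip6, 65.9 of Hsd3b1, 25.9 of Inhba and 23.1 of Cyp11a1. The highest uninjected values of these were 22.9, 0, 2.63 and 0 CPM. Of the markers detected, Star alone was highest in an uninjected library (G04, 18.6 CPM). The 7 sperm markers summed to at most 7.22 CPM. Their part in the results was not tested. The oocyte and early embryo genes Dppa3, Nlrp5, Padi6, Tle6, Zp1 and Zp2 were detected in every library.

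The marker of the injection, Trim21 (chromosome 7, positions 102557922 to 102565469), checked the labels. Trim21 was 0 CPM in all 5 uninjected libraries and between 277 and 3570 CPM, with a median of 1490 CPM, in the anti-SMARCA5 libraries. CPM is the count relative to the library's total, scaled with TMM factors over the 22 libraries of replicate 3. All 7 injected libraries lay above all uninjected ones, at least 539-fold higher in the mean than the floor of 3 counts per uninjected library. In the fit across all genes its log2 fold change was 14.00 (SE 1.12, adjusted p = 0.000154), a size that depends on the prior count. In the IgG libraries Trim21 ranged from 0 to 1940 CPM, with 2 of 10 at 3 counts or fewer. IgG wells A03 and B04 held 0 CPM, G03 4.02, C03 14.8 and D03 18.4 CPM, all far below the lowest anti-SMARCA5 library. The other IgG libraries held 517 to 1940 CPM.

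Smarca5 (chromosome 8, positions 80698507 to 80739497) encodes the targeted protein, and because TrimAway acts on protein, its RNA does not measure the depletion. The uninjected libraries held 437, 331, 829, 446 and 306 CPM. The anti-SMARCA5 libraries ranged from 53.3 CPM to 692 CPM with a median of 152 CPM. The libraries other than well B05, which held the 692 CPM, all lay below the lowest uninjected library. The edgeR log2 fold change of -1.14 (SE 0.54, adjusted p = 0.118) did not pass the threshold. Without well B05 it was -1.82 (adjusted p = 0.00871), and it passed in 3 more of the 21 alternatives. Smarca1, the paralogous ISWI ATPase, was at 3 counts or fewer in 6 of 7 anti-SMARCA5 and 3 of 5 uninjected libraries and was not tested.

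Across all genes, 2318 of 8697 tested (26.7%) passed edgeR's quasi-likelihood test at a Benjamini-Hochberg adjusted p under 0.05. Of these, 1314 (15.1%) were higher and 1004 (11.5%) lower in anti-SMARCA5 embryos, and 1289 and 1002 of them differed at least 2-fold. For 578 genes (6.65%) every anti-SMARCA5 library lay above every uninjected library, and for 550 (6.32%) below. The split between directions depended on the scaling, with 56.7% of the calls higher under TMM scaling, 44.8% under DESeq2 size factors and 27% under library totals alone. The median log2 fold change of all tested genes moved with it, from -0.106 to -0.291 and -0.606, so the gene groups below are also given relative to that median. Without well F04 1275 of 9320 tested genes changed, 66.4% of them higher. Counts of list members without it are therefore not to be read against the 15.1% and 11.5%.

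Beside Trim21, the 11 largest rises among genes averaging 4 or more in log2 CPM were D630023F18Rik, Car10, Gata3, Ldb2, Itga8, Timd4, Ctnna3, Gm5083, Tac2, Nlrp4g and Bmp5. Gata3, a transcription factor of the trophectoderm, held 1.11, 0.877, 0, 4.14 and 1.20 CPM in the uninjected libraries and 23.1 to 107 CPM, with a median of 53.3 CPM, in the anti-SMARCA5 libraries. The groups did not overlap, and its log2 fold change was 5.21 (SE 0.77, adjusted p = 0.00172). Gata3 overlaps 3 annotated transcripts of other genes, and whether the counting used strand is not given in the sources used here. Bmp5, a secreted bone morphogenetic protein, held 51.2, 32.4, 17.8, 32.1 and 77.0 CPM in uninjected embryos. It ranged from 271 to 1450 CPM in anti-SMARCA5 embryos, above all of these, and rose by 4.21 on the log2 scale (SE 0.49, adjusted p = 0.000409). Car10, a carbonic anhydrase relative without enzyme activity, was at least 11.6-fold higher than the floor of 3 counts per uninjected library, and Itga8, an integrin subunit, at least 12.8-fold. Of the 12 largest rises 9 showed no overlap between the groups, against 6.65% of all tested genes. The exceptions were Ctnna3, Gm5083 and Tac2. The 12 were picked by their fold change in these same libraries, which favours genes without overlap. Trim21, D630023F18Rik, Car10, Ldb2, Itga8 and Timd4 were at 3 counts or fewer in all 5 uninjected libraries. Such genes could pass the filter on low counts through the anti-SMARCA5 group alone.

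The 12 largest falls were Rps19bp1, CAAA01066805.1, Zfp707, Dub1a, Aprt, Ppp1r15a, Ankrd54, Gm13068, Pgp, Exoc3l2, Mrpl28 and Tbl2, and 11 of them showed no overlap between the groups, the exception being Aprt. Of all tested genes 6.32% lay lower without overlap, and these 12 were likewise picked by their fold change. Rps19bp1, whose protein binds the ribosomal protein RPS19, held 14.5, 21.9, 98.5, 57.9 and 9.63 CPM in uninjected libraries. Its anti-SMARCA5 values ran from 0 to 2.1 CPM with a median of 0, and the mean lay at least 17.5-fold below the uninjected mean. Ppp1r15a, the GADD34 subunit that directs a phosphatase to the initiation factor eIF2α, held 49.0, 103, 134, 53.8 and 55.4 CPM against 0 to 6.86 CPM. Dub1a, a deubiquitinase of the family that includes the Usp17-like genes, held 109, 320, 63.8, 113 and 67.4 CPM against 0 to 12.3 CPM, and fell by 5.68 (SE 0.89, adjusted p = 0.00172). Dub1a has near-identical relatives, and the treatment of reads with multiple matches is not given in the sources used here. Mat2a, which makes the methyl donor S-adenosylmethionine, held 567, 281, 1190, 99.3 and 303 CPM in uninjected embryos and 9.61 to 71.5 CPM in anti-SMARCA5 embryos. Its groups did not overlap, and it fell by 4.13 on the log2 scale (adjusted p = 0.00172).

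**Figure D1:**
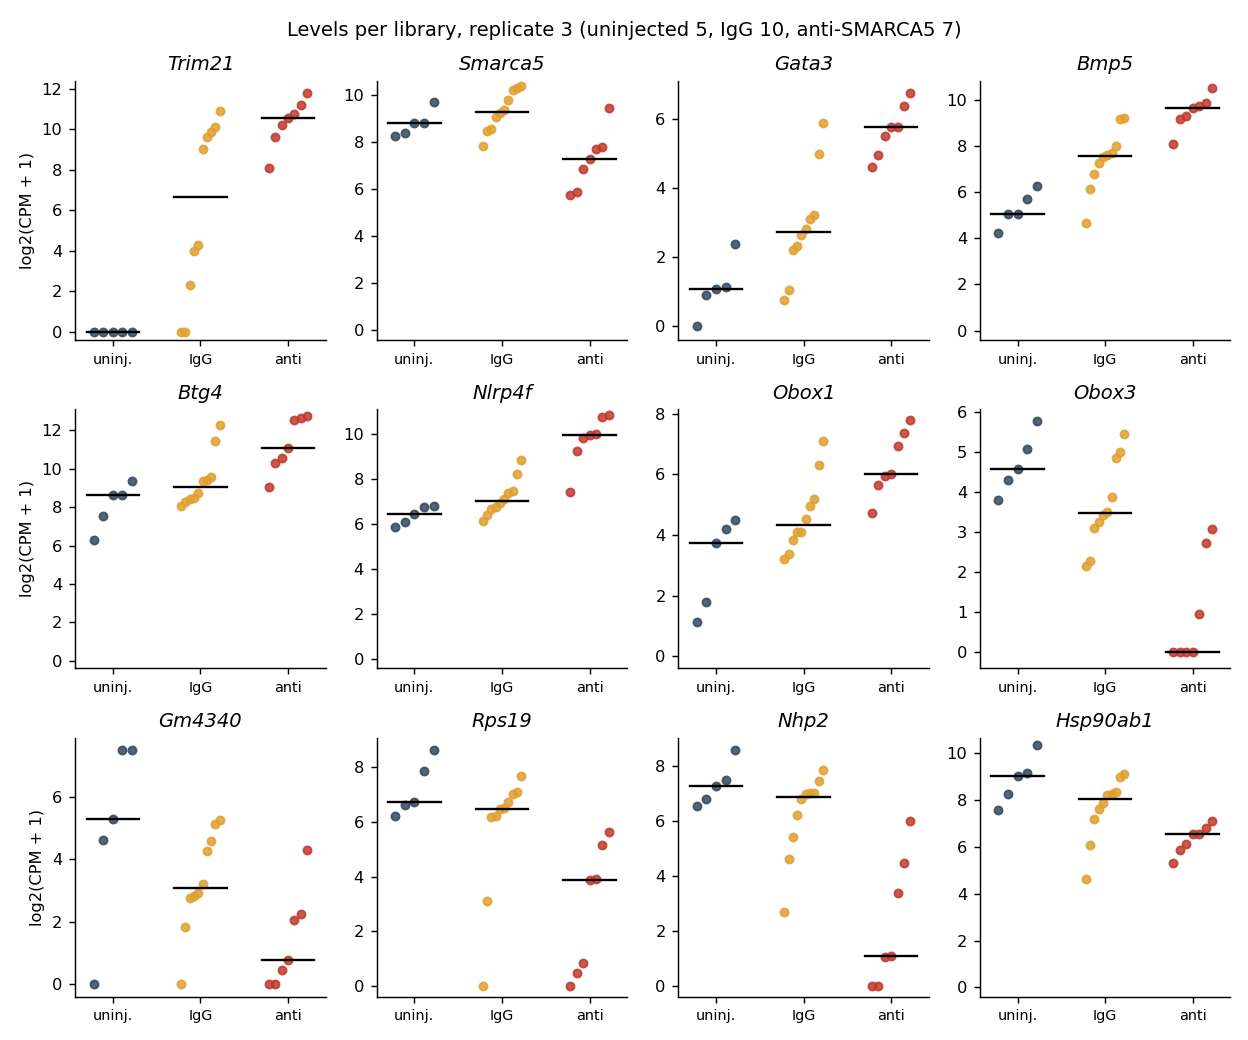
CPM of 12 genes in every library of replicate 3, as log2(CPM + 1) on the vertical axis, with points sorted by value within each group (uninjected 5, IgG 10, anti-SMARCA5 7) and a bar at the median. Trim21 is 0 in all uninjected libraries and at least 277 CPM in all anti-SMARCA5 libraries, and Obox3 and Obox1 lie on opposite sides of the uninjected values.

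Genes that build and run the ribosome were lower as a group. Of 83 tested cytosolic ribosomal protein genes, 57 fell and 0 rose, against 11.5% lower among all tested genes, and their median log2 fold change was -2.3, or -2.20 relative to the median of all genes. Under DESeq2 size factors and library totals alone that relative median was -2.19 and -2.1. Summed over the list, uninjected libraries D04 to H04 held 9970, 6100, 21100, 6500 and 7050 CPM, and anti-SMARCA5 libraries held 1950 to 4930 CPM. The sums did not overlap, and the highest anti-SMARCA5 sums were those of wells D05 and B05. Fewer cells of a type and less RNA per cell cannot be told apart in such whole-embryo values. Well F04 held the highest sum. Without it 17 of the 83 genes fell, 0 rose and the median was -1.81.

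Among its members, Rps15, a protein of the small ribosomal subunit, held 63.5, 36.0, 132, 19.6 and 31.3 CPM in uninjected libraries. Its anti-SMARCA5 values ran from 0 to 13.9 CPM, all below the lowest of these, and it fell by 4.03 on the log2 scale (SE 1.01, adjusted p = 0.0119). Rps19 and Rps20 of the same subunit fell by 3.51 and 3.74. Rps19 did not overlap between the groups and Rps20 did. Without well F04 Rps19 had a log2 fold change of -3 (adjusted p = 0.0513). Many ribosomal protein genes have processed pseudogenes, so the level of a single gene is uncertain where reads match several places. Rps27l, a paralogue outside the common set, was the tested member with a fold change above 0, at 1.28 (adjusted p = 0.127).

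Nucleolar and rRNA processing genes showed 19 of 57 tested members lower and 0 higher, against 11.5% lower among all tested genes. Their median log2 fold change was -1.48. Nhp2, a core protein of H/ACA ribonucleoproteins that guide pseudouridine formation, held 109, 152, 380, 92.0 and 176 CPM in uninjected embryos and 0 to 62.1 CPM in anti-SMARCA5 embryos, without overlap. Nop16 and Nop2, both needed to make the large subunit, fell by 2.93 and 3.02, and Imp3, of the small subunit processome, fell by 3.46. Translation initiation factors showed 11 of 37 lower and 0 higher, with a median of -1.3. Eif6, which keeps the large subunit from joining too early, fell by 3.20 without overlap between the groups, and the eIF3 subunits Eif3b, Eif3l and Eif3f fell, with log2 fold changes of -3.74, -3.31 and -3.15. Without well F04 the counts were 6 nucleolar genes and 2 initiation factors lower, with medians of -1.06 and -0.99. In that setting 1275 of 9320 tested genes changed, 66.4% of them higher, and the median of all tested genes was -0.0642. The share of all genes that was lower was thus well under 11.5% there. Leaving out well D04 or C05 gave 12 nucleolar genes lower, and leaving out C05, H05 or D04 gave 5, 6 and 7 initiation factors lower. Of the genes named here Nop2, Nop16, Eif3b, Eif3l and Eif3f missed the threshold without well F04, at log2 fold changes of -2.5, -2.53, -2.2, -2.71 and -2.82 (adjusted p = 0.0976, 0.0622, 0.113, 0.0525 and 0.0819).

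Among genes of the splicing, proteasome and folding machinery, those that passed the test were lower, apart from 2 proteasome genes. Among all tested genes 11.5% were lower and 15.1% higher. Spliceosome and SR protein genes had 12 of 52 lower and 0 higher (median -1.01), among them the core Sm proteins Snrpd2 and Snrpb and the U1 proteins Snrpa and Snrnp70, with log2 fold changes between -3.13 and -2.74. Proteasome subunits had 14 of 36 lower and 2 higher (median -1.12). Psmb5, the chymotrypsin-like active subunit, held 43.5, 50, 208, 26.9 and 25.3 CPM in uninjected libraries against 0 to 14.0 CPM and fell by 4.54 (SE 1.09, adjusted p = 0.00997). The 2 that rose were the activator genes Psme4 and Psme3. Psme4, the PA200 activator, rose by 2.61 with all 7 libraries above the highest uninjected library. Chaperone genes had 7 of 26 lower and 0 higher (median -1.04). Hsp90ab1, a constitutive HSP90, held 527, 304, 1320, 188 and 569 CPM in uninjected libraries and 39.2 to 136 CPM in anti-SMARCA5 libraries, without overlap, and fell by 2.78 (SE 0.45, adjusted p = 0.00172). Hspa8 fell by 2.55 and the endoplasmic reticulum chaperone Hspa5 by 2.12, also without overlap. Without well F04, 2 spliceosome, 5 proteasome and 3 chaperone genes were lower. In that setting 1275 of 9320 tested genes changed, 66.4% of them higher. The share of all genes that was lower was thus well under 11.5% there. Snrpd2, Snrpb, Snrpa and Snrnp70 missed the threshold without F04 (adjusted p = 0.103, 0.0733, 0.0509 and 0.0885). Leaving out well H04 or E04 gave 6 spliceosome genes lower, E04 or D04 gave 9 and 7 proteasome genes, and H04 gave 4 chaperone genes.

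The machinery that TrimAway itself uses downstream of TRIM21, taken as 16 ubiquitin and p97 factors, had 1 member higher and 1 lower. Among all tested genes 15.1% were higher and 11.5% lower. Ube2d3, a ubiquitin-conjugating enzyme, ranged from 1080 to 16700 CPM in anti-SMARCA5 libraries against 585 to 1120 CPM in uninjected libraries and rose by 2.66 (SE 0.59, adjusted p = 0.00734), with 6 of 7 libraries above the highest uninjected library. Nuclear genes of the respiratory chain had 9 of 50 lower and 0 higher (median -0.84), among them the complex III genes Uqcrfs1, Uqcrc1 and Uqcrq (adjusted p = 0.0766 for Uqcrq without well F04) and the complex IV gene Cox4i1. Of the 50 genes 4 fell without well F04, and 6 without D04 or C05. The 13 mitochondrially encoded genes had mt-Co1 higher, at 1.23 (adjusted p = 0.05 after rounding), a call lost in 14 of 21 alternatives, and a median of 0.34. With library totals alone, 0 of them were higher and 2 lower and the median was -0.10.

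**Figure D2:**
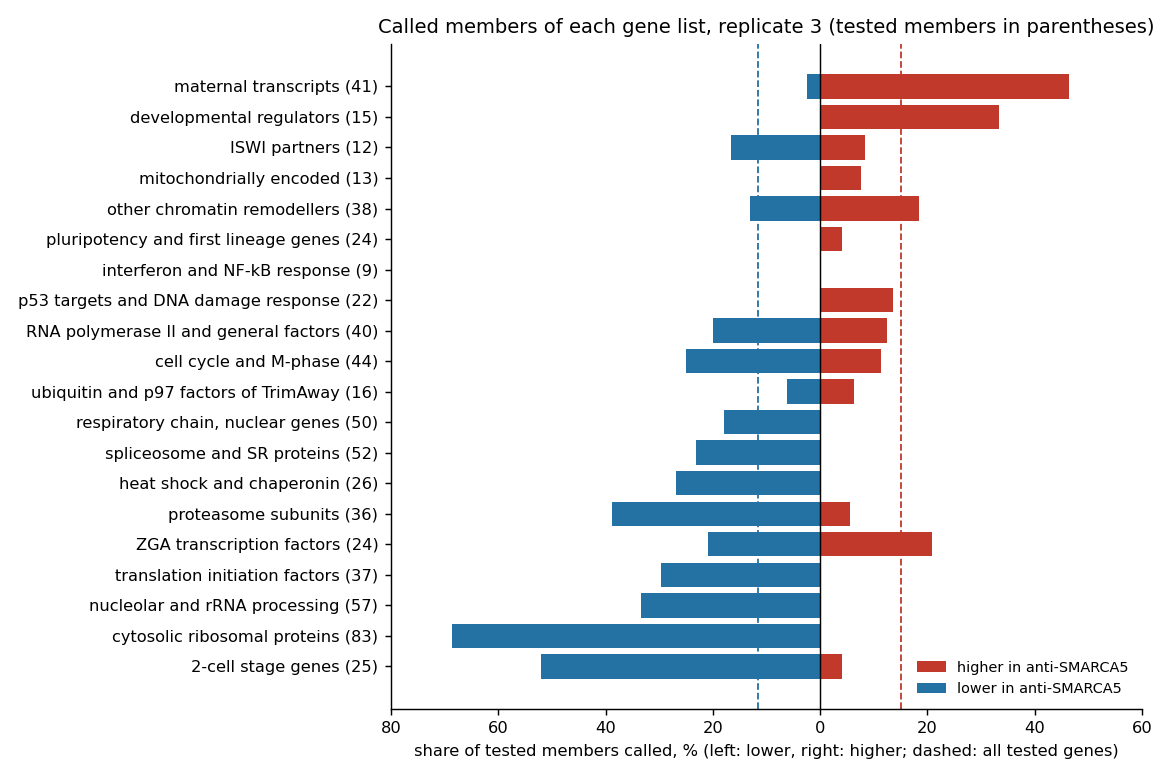
Share of tested members of each gene list called lower (blue, to the left) or higher (red, to the right) in anti-SMARCA5 embryos at an adjusted p under 0.05, in percent on the horizontal axis, with dashed lines at the shares of all tested genes (11.5% lower, 15.1% higher) and lists ordered by median log2 fold change. Cytosolic ribosomal protein genes extend furthest to the lower side (57 of 83) and maternal transcripts to the higher side (19 of 41). The bar of developmental regulators can be raised by the filter on low counts and is not to be read against the dashed lines.

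Genes switched on at the 2-cell stage were lower in anti-SMARCA5 embryos of this replicate. Of 25 tested 2-cell stage genes 13 fell and 1 rose, against 11.5% lower and 15.1% higher among all tested genes. Their median log2 fold change was -2.61, or -2.51 relative to the median of all genes. Summed over the list, uninjected libraries held 1340 to 4000 CPM and anti-SMARCA5 libraries 210 to 910 CPM. The sums did not overlap, and well F04 held the lowest uninjected sum. Its mean of log2(CPM + 1) over the list, 2.78, lay within the anti-SMARCA5 range of 1.19 to 3.72, and the other 4 uninjected means (4.70 to 5.89) lay above it. Leaving out single libraries gave 7 to 15 genes lower, with 7 without well D04, E04 or H04, 8 without H05 and 12 without F04. The median lay between -2.99 and -1.92, with 1 gene higher each time.

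AF067063, a transcript of the 2-cell stage, held 120, 156, 201, 206 and 156 CPM in uninjected libraries, and 4 of the 7 anti-SMARCA5 libraries were at 0 with a highest value of 35.1 CPM. The groups did not overlap, and it fell by 4.03 (SE 1.06, adjusted p = 0.0142). Gm4340 held 37.9, 182, 0, 23.8 and 182 CPM against 0 to 18.8 CPM. It fell by 4.51 (SE 1.20, adjusted p = 0.0155), but the groups overlapped because well F04 held 0. Tcstv3, a 2-cell gene that lies in a cluster of copies, held 7.80, 255, 14.5, 49.6 and 20.5 CPM against 0 to 12.3 CPM. Its log2 fold change was -4.08, and -2.46 (adjusted p = 0.0771) without well E04, which held the 255 CPM. Sp110, a nuclear body protein, fell by 3.00 and B020031M17Rik by 3.48, both with all 7 anti-SMARCA5 libraries below all uninjected ones. Zscan4d and Zscan4f, of the telomere-associated Zscan4 cluster, had log2 fold changes of -1.97 and -1.37 that did not pass (adjusted p = 0.177 and 0.369). Zfp750, a zinc finger factor better known from skin, rose by 3.66 without overlap. Gm4340, Tcstv3, AF067063 and the Zscan4 genes belong to families of close copies, and their single values are uncertain.

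The Obox homeobox genes moved in both directions. Obox3 held 53.5, 32.4, 12.9, 18.6 and 22.9 CPM in uninjected libraries, while 4 of 7 anti-SMARCA5 libraries were at 0 and the highest held 7.36 CPM. The groups did not overlap, and Obox3 fell by 3.77 (SE 1.05, adjusted p = 0.0179). Obox1, Obox5 and Obox2, which are also stored in the oocyte, rose by 3.16, 2.38 and 2.33. Obox1 held 12.3, 17.5, 2.42, 21.7 and 1.20 CPM in uninjected libraries against 25.3 to 222 CPM, without overlap. Obox1 and Obox3 overlap in the annotation that was counted. Among all 24 tested transcription factors linked to genome activation, 5 rose and 5 fell, against 15.1% and 11.5% of all tested genes. The other rises were Yap1, the Hippo pathway coactivator, and Max, the MYC partner. The other falls were Rarg, Gabpa, Dppa2 and Nfyc. The number of falls rested on single libraries, with 1 without well D04 or E05, 2 without F04 or C05, 3 without H04, G04, E04, A05 or H05 and 8 without D05, while 4 or 5 rose each time. The median of the list was -1.21, and -0.70 without F04. Under library totals alone 3 rose and 9 fell. Obox5 missed the threshold without F04 (2.25, adjusted p = 0.0586).

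Maternal transcripts were higher as a group. Of 41 tested, 19 rose and 1 fell, against 15.1% higher among all tested genes, with a median log2 fold change of 1.66, or 1.76 relative to the median of all genes. Under DESeq2 size factors and library totals alone the relative median was 1.77 and 1.74, with 17 and 11 members higher. Averaged over the list, log2(CPM + 1) was 5.47, 5.56, 4.17, 5.80 and 5.44 in uninjected libraries D04 to H04 and 5.82 to 7.25 in anti-SMARCA5 libraries. These means lay side by side without overlap, 5.80 being the highest uninjected and 5.82 the lowest anti-SMARCA5 mean, and the lowest anti-SMARCA5 means were those of wells D05 and B05. The summed CPM of the list did overlap, at 4660 to 19000 CPM in uninjected and 10500 to 59600 CPM in anti-SMARCA5 libraries. Without well F04 13 members rose.

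Btg4, an oocyte protein that recruits the CCR4-NOT deadenylase to maternal mRNA, held 393, 394, 75.9, 646 and 187 CPM in uninjected libraries. It ranged from 519 to 6940 CPM, with a median of 2160 CPM, in anti-SMARCA5 libraries, 6 of which lay above the highest uninjected library, and rose by 3.36 (SE 0.69, adjusted p = 0.00507). Cnot7 and Cnot6l, catalytic subunits of that deadenylase, rose by 2.06 and 2.3. Nlrp4f, of the oocyte NLRP family, held 109, 88.6, 58.1, 113 and 67.4 CPM against 172 to 1860 CPM and rose by 3.59 (SE 0.51, adjusted p = 0.00172). Nlrp9a held 37.9, 22.8, 12.1, 67.2 and 71.0 CPM against 114 to 1010 CPM and rose by 3.86. In neither gene did the groups overlap, and in both well D05 held the lowest anti-SMARCA5 value. The oocyte-secreted factors Bmp15 and Gdf9 rose by 2.85 and 1.65. Zp3, a zona pellucida glycoprotein, fell by 2.24 (adjusted p = 0.00818), with 27.9 to 84.7 CPM in uninjected and 3.63 to 18.7 CPM in anti-SMARCA5 libraries, although with a length and GC correction of each library, chosen after the data were seen, its log2 fold change was -0.71 (adjusted p = 0.332).

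**Figure D3:**
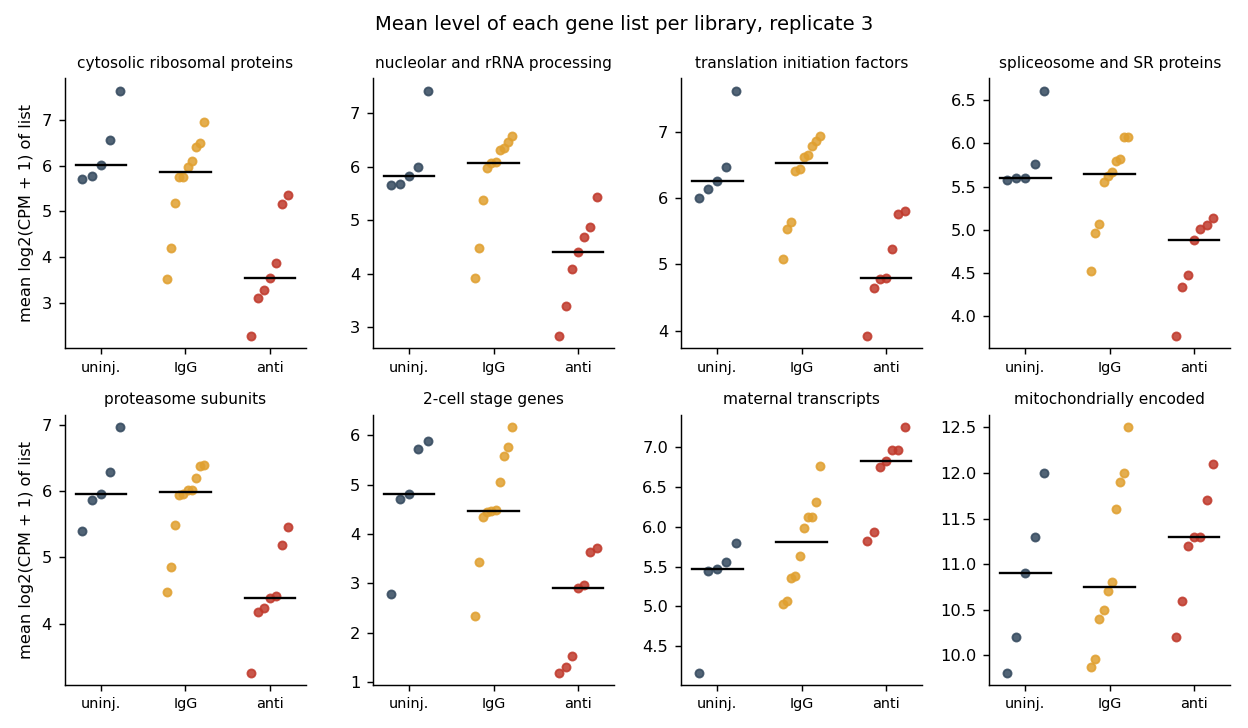
Mean of log2(CPM + 1) over the genes of 8 lists in every library of replicate 3, with points sorted by value within each group (uninjected 5, IgG 10, anti-SMARCA5 7) and a bar at the median. For cytosolic ribosomal protein genes the anti-SMARCA5 means run from 2.27 to 5.35 and the uninjected means from 5.70 to 7.64, and for maternal transcripts from 5.82 to 7.25 and from 4.17 to 5.80.

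The 5′ ends of some members of these 3 groups are printed to show the CpG content at the starts of these 8 genes. Each line runs 5′ to 3′ from 40 bases before to 15 bases after the RefSeq start in build GRCm38.p6, and capitals mark CG dinucleotides. CG reads the same on both strands, and 69.6% of the 27025 promoters of that table hold at least 1 in this 55-base window. RefSeq promoters matched 72.2% of the tested genes, too few for a comparison of the groups, and the genes shown do not stand for them.
Rps15: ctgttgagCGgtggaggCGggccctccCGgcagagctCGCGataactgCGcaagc
Rps19: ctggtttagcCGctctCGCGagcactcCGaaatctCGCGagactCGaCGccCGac
Rpl38: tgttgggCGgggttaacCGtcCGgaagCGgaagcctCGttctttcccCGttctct
Obox3: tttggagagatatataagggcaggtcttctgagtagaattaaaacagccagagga
Ubtfl1: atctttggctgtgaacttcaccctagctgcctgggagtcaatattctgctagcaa
Nlrp9a: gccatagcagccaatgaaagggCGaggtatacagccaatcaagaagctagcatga
Nlrp4f: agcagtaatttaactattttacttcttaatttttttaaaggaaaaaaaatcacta
Btg4: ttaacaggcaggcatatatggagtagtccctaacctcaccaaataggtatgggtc
These windows lie at chr10:80292391-80292445 (plus strand), chr7:24884552-24884606 (plus), chr11:114668540-114668594 (plus), chr7:15639763-15639817 (minus), chr9:18404378-18404432 (plus), chr7:26534983-26535037 (plus), chr13:65205702-65205756 (minus) and chr9:51115961-51116015 (plus), in the order printed. The ribosomal protein windows held 6, 9 and 6 CG, the 2-cell windows of Obox3 and Ubtfl1 0 and the maternal windows of Nlrp9a, Nlrp4f and Btg4 1, 0 and 0. Rps15, Rps19, Rpl38, Obox3 and Ubtfl1 fell in anti-SMARCA5 embryos and the 3 maternal genes rose, so the genes shown that fell had both CpG-rich and CpG-poor starts.

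**Figure D4:**
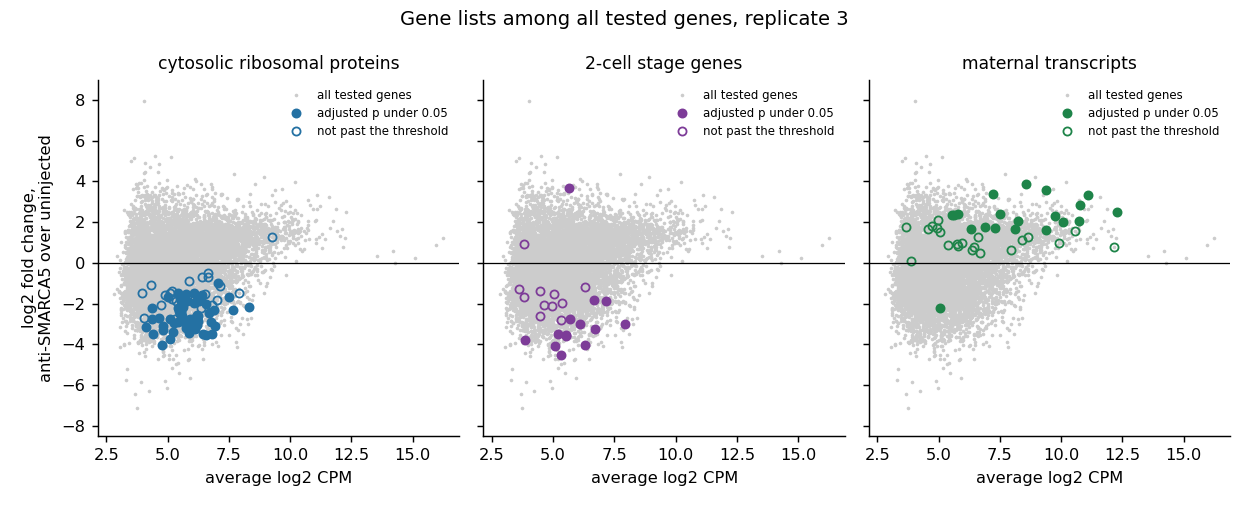
Log2 fold change of anti-SMARCA5 over uninjected against average log2 CPM for all 8697 tested genes (grey) and the members of 3 lists, filled where the adjusted p was under 0.05. Of 83 ribosomal protein genes 57 were called lower, of 25 2-cell stage genes 13 lower and 1 higher, and of 41 maternal transcripts 19 higher and 1 lower.

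Among 44 tested cell cycle genes 5 rose and 11 fell, against 15.1% higher and 11.5% lower among all tested genes. Cdc20, the activator of the anaphase-promoting complex, held 182, 262, 764, 63.1 and 238 CPM in uninjected embryos and 13.6 to 45.7 CPM in anti-SMARCA5 embryos, without overlap, and fell by 3.52 (SE 0.53, adjusted p = 0.00172). The mitotic kinases Aurkb, Aurka and Cdk1 fell too, with log2 fold changes of -3.31, -2.76 and -2.21. Ttk, a spindle checkpoint kinase, moved the other way, from 8.43 to 47.9 CPM in uninjected to 134 to 347 CPM in anti-SMARCA5 libraries. It rose by 2.73 (SE 0.43, adjusted p = 0.00172). Wee2, which holds oocyte CDK1 inactive, and the centriole kinase Plk4 rose by 2.61 and 2.35. Without well F04 5 genes rose and 6 fell, without E04 7 fell, and with the length and GC correction 8 rose and 6 fell. Of 40 RNA polymerase II and general factor genes 5 rose and 8 fell, against the same 15.1% and 11.5% of all tested genes. The shared polymerase subunits Polr2l and Polr2e fell by 2.90 and 2.55 without overlap between groups, and Gtf2a2, a TFIIA subunit, rose by 2.43. Without well F04 3 rose and 6 fell, and without D04 2 rose and 6 fell.

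Of 22 tested p53 targets and DNA damage genes 3 rose and 0 fell, against 15.1% higher and 11.5% lower among all tested genes. The share that rose was thus no larger than that of all tested genes. The median log2 fold change of the list was -0.32, beside -0.106 for all tested genes. Rrm2b, the p53-induced ribonucleotide reductase subunit, ranged from 94.4 to 263 CPM in uninjected and 289 to 1070 CPM in anti-SMARCA5 libraries and rose by 1.54 (adjusted p = 0.00997). Mdm4, an inhibitor of p53, and the checkpoint kinase Chek1 rose by 1.55 and 1.36, and both missed the threshold under library totals alone (adjusted p = 0.0807 and 0.146). Without well F04, H04 or D04, 1 member of the list rose, and without F04 1 fell. Interferon and NF-kB response genes had 9 members tested and 0 called in edgeR, with 1 at an unadjusted p under 0.05. It was 0 under every single-library omission and 1 in DESeq2 and without the filter on low counts. Irf1 and Adar had log2 fold changes of -1.15 and -0.27 (adjusted p = 0.357 and 0.668).

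Of 44 developmental regulators, most of which are silent at this stage, 15 passed the filter on low counts. Gata3 and Cyp26a1 were at 3 counts or fewer in 4 of 5 uninjected libraries and Hoxa9 in 3 of 5, so such genes could pass the filter mainly through the group in which they were high, and no share or median of the list is given. Those that rose were Gata3, the homeobox genes Meis2, Hoxa9 and Hoxa7, and Cyp26a1, which degrades retinoic acid. Meis2 held 180, 87.7, 65.4, 101 and 69.8 CPM in uninjected libraries against 256 to 950 CPM, without overlap, and rose by 2.38 (SE 0.38, adjusted p = 0.00172). Hoxa9 held 0 to 11.4 CPM against 0.801 to 77.8 CPM. Its rise of 2.95 (adjusted p = 0.047) fell short of the threshold in 11 of 20 alternatives, as did that of Cyp26a1 (3.31, adjusted p = 0.0395) in 8 of 20. Of 24 pluripotency and lineage genes Gata3 rose and 0 fell, against 15.1% and 11.5% of all tested genes.

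Other partners of SMARCA5 and other remodellers showed no common direction. Among 12 tested ISWI genes, Smarca5 included, Baz1a, the partner of SMARCA5 in the ACF complex, fell by 1.25 (adjusted p = 0.0403), Rbbp4, a histone-binding protein shared by several complexes, fell by 1.47 (adjusted p = 0.0423), and Baz2b rose by 1.08 (adjusted p = 0.0395). These calls were lost in 10, 9 and 15 of 21 alternatives. Of 38 genes of other remodelling complexes 7 rose and 5 fell, near the 15.1% higher and 11.5% lower among all tested genes. Smarca2, the BRM ATPase of BAF complexes, held 95.8, 118, 35.5, 116 and 84.3 CPM in uninjected libraries against 269 to 526 CPM, without overlap, and rose by 2.1 (SE 0.34, adjusted p = 0.00185). Smarca4, the alternative BRG1 ATPase, fell by 1.79 (adjusted p = 0.0298). The NuRD genes Mta2 and Hdac1 fell by 3.04 and 2.37, and Hdac1 missed the threshold without well F04 (adjusted p = 0.0684). Without well F04, 4 of the 38 rose and 2 fell, without E04 3 rose and 4 fell, and without D04 5 rose and 2 fell. With library totals alone, the medians of the ISWI and of the other remodeller genes changed sign, from 0.50 to -0.06 and from 0.25 to -0.24.

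Genes that rose and fell differed in a property that the comparison did not use. Over GENCODE M21 transcripts (GRCm38), the longest transcript of a gene had a median length of 4206 bases and 45.0% GC among genes that rose, and 2644 bases and 51.0% GC among genes that fell, against 3523 bases and 48.4% in all tested genes. The genes that rose spanned a median of 58656 bases in the genome and those that fell 12165. These are descriptions across genes, which are not independent replicates. With length and GC taken out of each library, 2718 genes changed, 62.0% of them higher. Of the lists, 38 ribosomal protein genes then fell and 1 rose, 30 maternal transcripts rose and 0 fell, and 13 2-cell stage genes fell and 1 rose.

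The IgG libraries of the same replicate were set beside both groups. The comparisons share libraries, so their values are only placed side by side. Several IgG libraries held little Trim21, as given above, and the bearing of this on the comparisons with IgG was not tested. IgG against uninjected gave 0 of 9348 genes in edgeR (0%), with 916 at an unadjusted p under 0.05 and 42 in DESeq2. Anti-SMARCA5 against IgG gave 1576 of 9547 (16.5%), 665 higher (6.97%) and 911 lower (9.54%). Leaving out single libraries moved that count between 628 without anti-SMARCA5 well C05 and 2542 without IgG well A04. Against IgG, 27 of 83 ribosomal protein genes fell with a median of -1.67, while the median for IgG over uninjected was -0.69. Against IgG, 13 of 28 tested 2-cell stage genes fell and 1 rose (median -2.50), and the median of IgG over uninjected was -0.03. Of 42 maternal transcripts 11 rose against IgG (median 0.999), with 0.73 for IgG over uninjected.

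Single genes show the same 3 values. Smarca5 had log2 fold changes of -1.76 against IgG (adjusted p = 0.0244), of -1.14 against uninjected and of 0.62 for IgG over uninjected (adjusted p = 0.602). Nlrp4f was 69.1 to 471 CPM in IgG libraries and changed by 2.64 against IgG (adjusted p = 0.00465). AF067063 was 17 to 386 CPM in IgG libraries and fell by 4.06 against IgG (adjusted p = 0.0142), with 0.00 for IgG over uninjected. Sec31a, a coat protein of vesicles leaving the endoplasmic reticulum, rose by 1.64 against IgG and by 1.60 against uninjected. Eef2k, the kinase that slows translation elongation, rose by 3.00 and 3.12 and Lmo7 by 1.72 and 2.45. Gm5590 fell by 7.24 and 6.42, and all anti-SMARCA5 values of it were at 3 counts or fewer, at least 11.4-fold below the uninjected mean. Gata3 was 0.671 to 58.0 CPM in IgG libraries, overlapping the anti-SMARCA5 range, and rose by 2.19 against them (adjusted p = 0.0301). Meis2 (101 to 658 CPM in IgG) had 0.88 (adjusted p = 0.0882).

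The same contrast in replicate 1, with its own uninjected embryos, tested whether the effect differed between pools. In replicate 1, 1656 of 10632 genes changed (15.6%), 1178 higher (11.1%) and 478 lower (4.5%). The effect differed between replicates for 1441 of 12981 genes (11.1%), 500 higher (3.85%) and 941 lower (7.25%) in replicate 3. Of 8507 genes tested in both, 435 were called in both, which is 19.1% of those called in replicate 3 and 31.6% of those called in replicate 1, and 407 of them had the same direction. Over all 8507 genes 16.2% were called in replicate 1, against the 19.1% among those called in replicate 3, and 26.8% were called in replicate 3, against the 31.6% among those called in replicate 1. These differences were not tested. The pools also differ in their wells and in anything else that varied between them, which cannot be told apart.

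Among all tested genes 11.1% were higher and 4.5% lower in replicate 1. The difference between replicates was upward in replicate 3 for 3.85% and downward for 7.25%. The 2-cell stage genes moved in opposite directions in the 2 pools. In replicate 1, 17 of 30 tested rose and 0 fell, with a median log2 fold change of 1.64, against -2.61 in replicate 3, and the difference passed for 28 of 32, 27 of them lower in replicate 3. Between 22 and 29 were lower when single libraries of replicate 3 were left out. Gm4340 rose by 5.29 in replicate 1 (adjusted p = 0.00152) and fell by 4.51 in replicate 3, a difference of -9.66. Gm13068 rose by 1.11 in replicate 1 and fell by 4.94 in replicate 3. Maternal transcripts had 3 of 44 higher and 1 lower in replicate 1 (median 0.35), and 15 of 48 differed upward and 1 downward in replicate 3, with 10 upward without H04, A05 or C05 and 19 without D05. Btg4 had a log2 fold change of -0.15 in replicate 1 (adjusted p = 0.812), a difference of 3.64. Ribosomal protein genes had 15 of 84 lower and 0 higher in replicate 1 (median -0.71), and 18 differed downward and 1 upward. The 18 became 6 without well F04 (median difference -1.02 against -1.55), 9 without A05, G05 or C05, 10 without H04, 11 without D04 or H05, 36 without D05 and 37 in DESeq2.

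Some changes were shared by both pools. Trim21 rose by 13.25 in replicate 1 (adjusted p = 2.39e-12), Gata3 by 3.84 (adjusted p = 0.00677), Meis2 by 1.5 (adjusted p = 0.0116), Cyp26a1 by 5.71 (adjusted p = 0.00255) and Smarca2 by 1.87 (adjusted p = 0.000995). Mat2a fell by 1.27 in replicate 1 (adjusted p = 0.00589) and Rps19bp1 by 1.59 (adjusted p = 0.0157). The test of the difference passed for Rps19bp1 (-4.69) and Mat2a (-2.75), so both fell further in replicate 3. Smarca5 RNA had a log2 fold change of -0.11 there (adjusted p = 0.801).

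**Figure D5:**
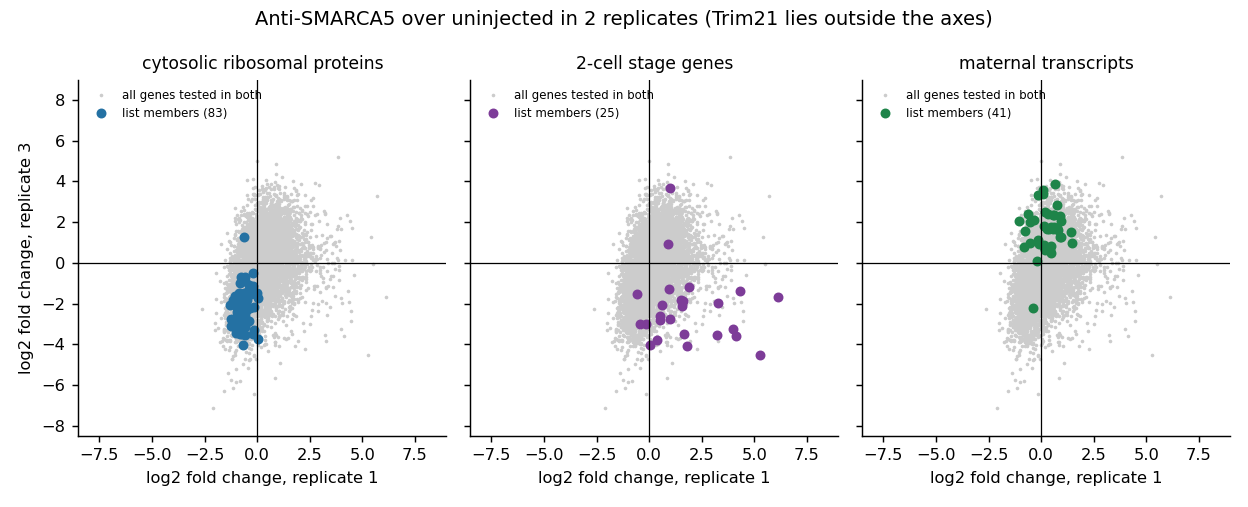
Log2 fold change of anti-SMARCA5 over uninjected in replicate 3 (vertical) against replicate 1 (horizontal) for the genes tested in both (grey) and the members of 3 lists, each replicate with its own uninjected libraries. The 2-cell stage genes lie mostly to the right of and below the zero lines, and ribosomal protein genes below and left. Medians over all members tested in a replicate, which are not only the points shown, were 1.64 (30 genes, replicate 1) and -2.61 (25, replicate 3) for 2-cell stage genes. For ribosomal protein genes they were -0.71 (84, replicate 1) and -2.3 (83, replicate 3).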

How the data were processed

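Polyadenylated RNA of single plate wells was sequenced by the RNA part of scNMT-seq with Nextera XT libraries, per the labels' protocols. The authors deposited whole-number read counts per gene that were not normalized; GRCm38 and HISAT2 are named per the file headers. The submitters' processing notes name Trim Galore 0.6.5, cutadapt 2.3 and HISAT2 2.1.0. Strand, multiple matches and duplicate removal are not given in the sources used here. Lines with the same identifier were summed (25965 to 25900 genes). Odd low counts exceeded even ones (17562 values of 1, 4243 of 2), so counting error can be larger than single reads imply. Libraries of a group differed by more than sampling noise (chi-square per degree of freedom at least 12.1).

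Counts were tested with edgeR 4.0.16 in R 4.3.3 (TMM, filterByExpr, robust quasi-likelihood, Benjamini-Hochberg adjusted p under 0.05), each comparison on its own groups. SE is the size of the log2 change over the square root of F. DESeq2 1.42.0, other scalings, filters, depths and single-library omissions were alternatives. A simulation changed 200 of 8697 genes. The main test recovered 0, 14, 36 and 41 of 50 genes changed 2, 4, 8 and 16-fold. Fewer genes changed there than were called in the data, so these rates do not describe the main comparison. Named genes were Smarca5, Smarca1, Trim21, the 12 largest rises and falls with average log2 CPM of at least 4, up to 4 called members per list (2 where none was called) and 5 genes a direction for the other comparisons, and any others were chosen after their values were seen. The members and lists were chosen with earlier results of these data known. Some genes that this rule selects are not reported here.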

Additional observations from a re-analysis of the deposited data

Results flagged for a closer look

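Values are given here where 1 library lay far from the rest of its group by Dixon's criterion, which chance meets in about 1 in 20 groups. It was met in 27 of 256 sets of values, with uninjected library F04 the distant one in 14 and anti-SMARCA5 library D05 in 5.

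F04 was the highest uninjected library for Eif3b (144 CPM, others 10 to 15.6), Eif3l (153 CPM), Eif6 (428 CPM), Psma6 (278 CPM) and Polr2e (227 CPM). It was also the highest in the mean of log2(CPM + 1) of the nucleolar (7.42, others 5.65 to 6), spliceosome (6.61), translation initiation (7.63) and polymerase II (6.65) genes. F04 was the lowest for Nlrp4g (0 CPM), Nlrp9b (0.807 CPM), Rrm2b (94.4 CPM), Smarca2 (35.5 CPM) and the mean of maternal transcripts (4.17, others 5.44 to 5.8). Library G04 was the highest for Gm5083 and Tac2 (5.17 CPM each, others 0) and the lowest for Imp3 (5.17 CPM, others 129 to 269).

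Among anti-SMARCA5 libraries, D05 was the lowest for Nlrp4g (52.3 CPM, others 264 to 834) and Nlrp9a (114 CPM) and the highest for Aprt (14.7 CPM), Ankrd54 (17.2 CPM) and Polr2l (44.1 CPM). B05 was the highest for Smarca1 (36.5 CPM, others 0) and the ISWI mean (7.03) and the lowest for the mean of oocyte and embryo markers (4.64, others 6.06 to 6.67). H05 was the highest for Zfp707 (6.55 CPM) and A05 for Mdm4 (15200 CPM).

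The effect of anti-SMARCA5 against uninjected differed between replicates 3 and 1 for 1441 genes by a test of the difference. Of the named genes, 59 passed it, 39 lower and 20 higher in replicate 3, and the values below are log2 fold changes of replicate 3 minus those of replicate 1. Among 2-cell genes and their neighbours in the ranking, the differences were -9.66 for Gm4340, -5.7 for Tcstv3, -3.93 for AF067063, -4.04 for Obox3, -5.94 for Gm13068, -6.33 for Gm5590, -4.17 for B020018G12Rik and -6.46 for Dub1a. Lyz2, the myeloid lysozyme that was high in 1 uninjected library of replicate 3, differed by -12.23.

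Ribosome, translation and folding genes differed by -3.29 (Rps15), -3.7 (Rps20), -2.68 (Rps19), -4.69 (Rps19bp1), -4.07 (Mrpl28), -3.35 (Nhp2), -2.92 (Imp3), -2.56 (Eif3l), -1.99 (Hsp90ab1), -1.73 (Hspa8), -2.04 (Hspa5) and -3.39 (Psmb5). Transcription, splicing, chromatin and cell cycle genes differed by -2.75 (Polr2l), -2.41 (Gtf2f1), -2.36 (Snrpb), -1.92 (Hdac1), -1.49 (Rbbp4) and -2.85 (Cdc20). The others that were lower in replicate 3 were CAAA01066805.1 (-4.94), Zfp707 (-5.0), Aprt (-3.96), Ppp1r15a (-4.59), Ankrd54 (-4.21), Pgp (-4.27), Exoc3l2 (-3.44), Tbl2 (-4.33), Mat2a (-2.75), Uqcrq (-2.11), Fbxo45 (-1.95) and the oocyte gene Zp3 (-1.75).

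Of the named genes higher in replicate 3, several are known from oocytes, with differences of 3.64 (Btg4), 3.61 (Nlrp4f), 3.33 (Nlrp9a), 3.43 (Nlrp9b), 3.6 (Nlrp4g), 3.56 (Obox1) and 3.13 (Obox5). The others were Bmp5 (3.17), Itga8 (4.11), Ube2d3 (2.32), Ttk (2.72), Smarcal1 (2.23), Cnot4 (2.86), Trip12 (2.29), Pld1 (3.6), Hivep1 (2.81), Zc3h6 (3.53), Lmo7 (2.8), Eef2k (3.73) and Sec31a (1.82).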

How the results depend on the processing

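The count of changed genes (2318) lay between 1275 without well F04 and 2877 without well D05, and within 1.5 times under the other scalings, filters and depths. DESeq2 called 3206, and a fit on all 3 groups 3018. The replicate difference (1441) was 2382 in DESeq2 and 966 to 2434 without single libraries, the upper value without D05. The share of these calls that was higher was 34.7%, 25.2% under library totals alone and 20.5% in DESeq2. Anti-SMARCA5 against IgG (1576) was 2669 in DESeq2 and 628 to 2542 without single libraries. That count moved by over 1.5 times without IgG well A04 (2542), A03 (926), B03 (945), C03 (902) or H03 (917), or anti-SMARCA5 well A05 (835), C05 (628), D05 (2397), E05 (924), G05 (726) or H05 (895). Its share of higher calls, 42.2%, was 21.6% under library totals alone. IgG against uninjected was 42 in DESeq2 and 0 in the other settings run. The difference in detected genes (-1488) lay between -1784 and -1222 without single libraries.

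Of 2124 values for 103 named genes, 1972 kept direction and call, 145 lost the call, 4 gained it and 3 reversed. The reversals were Adar (0.22 with the length and GC correction, against -0.27) and Tnfaip6, a cumulus marker (-0.034 under library totals alone, and -0.72 without well B05 to 0.91 without well H04, against 0.55), none of them called. The causes were not tested. Thinning to the smallest library total (2292 genes) and the length and GC correction (2718) were chosen after seeing the data. No paired analysis was possible because both groups come from replicate number 3 alone and share no further number. With 7 and 5 embryos, 0 of 50 simulated 2-fold changes were recovered against 14 of 50 at 4-fold. Fewer genes changed in the simulation than were called in the data, so these rates do not give the sensitivity of the main comparison. A gene that was not called may still have changed.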
